A study of Mus musculus with 391 samples.

Results

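Purine receptors and ectonucleotidases were followed as 10 genes, found by symbol among the 56941 genes of the count table: P2ry12, P2ry13, P2ry6, P2rx4, P2rx7, Gpr34, Entpd1, Nt5e, Alpl and Adora2b. All 10 had rows and reads. The cells were freed from pieces of brain vessel of adult mice, sorted into plates and read by Smart-seq2, which covers transcripts over their full length. By their labels 280 cells are microglia, the brain's own macrophages, and 111 are endothelial, the lining of its vessels; the deposited cell table codes these classes as MG and CP-EC, and the labels do not spell out CP-EC. The labels used here give the tissue, the adult stage and the class, and name no strain, sex, genotype, treatment or animal. Each class was therefore taken as a single sample (n = 1), and no test was made between them.

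Cells that are damaged or active release ATP, which is cut stepwise outside the cell to ADP, AMP and adenosine. P2X receptors are channels opened by ATP, most P2Y receptors are G protein-coupled receptors for nucleotides such as ADP and UDP, and a separate family of receptors senses adenosine. Microglia are known for using the ADP receptor P2Y12 to steer their processes toward injured cells and vessels, and enzymes on the vessel wall are known for clearing nucleotides from blood. Gpr34 is related to the P2Y receptors by sequence, but its known ligand is lysophosphatidylserine, a lipid, so it is a purine receptor by kinship only. Alpl, the tissue-nonspecific alkaline phosphatase, removes phosphate from many molecules, extracellular nucleotides among them.

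Levels are CPM (counts scaled to a common total of gene reads), from the summed reads of a class. Ranges in parentheses are 95% intervals, exact for CPM and ratios and Clopper-Pearson for shares. Without molecular identifiers they cover counting error only, of reads for CPM and ratios and of cells for shares. Those of CPM and ratios leave out the spread between cells, and none of them tells how animals vary. A cell is said to carry a gene at 10 reads or more. A median microglia-class cell had 146506 gene reads, of 47508014 in all, and a median endothelial cell 174345, of 21361227 in all. The cells sat on 4 plates, named A to D here from the column names. All microglia-class cells were on plate A (133) or plate B (147), which also held 7 and 10 endothelial cells in other well rows. Plates C (50) and D (44) were endothelial throughout. Of 12 microglia markers, 9 were read in at least 50% of microglia-class cells, and so were 9 of 12 markers of border-associated macrophages, which live along vessels and meninges. The 9 endothelial markers were all read in at least 50% of endothelial cells. Their summed level ran from 5.09 to 2159 CPM in microglia-class cells and from 6386 to 30050 CPM in endothelial cells, with no marker at 0 in either class. The endothelial class had reads of all 6 markers of fenestrated endothelium in at least 50% of its cells, with a summed level of 19627 CPM, and of 2 of 6 markers of barrier endothelium, at 1099 CPM.

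The promoters of 3 members are shown because the results turn on these genes: P2ry12 and P2ry13 are neighbouring genes carried together by many microglia-class cells, and Nt5e had 0 reads in that class. Each is 300 bases, 250 before to 50 after the gene's start, written 5′ to 3′ on the gene's strand, from RefSeq on build GRCm38.p6, an older build than the GRCm39 of the count table. P2ry12 is chr3:59262936-59263235 on the minus strand, P2ry13 is chr3:59210833-59211132 on the minus strand, and Nt5e is chr9:88327359-88327658 on the plus strand. Capitals mark GGAAGT, a form of the site bound by ETS factors such as PU.1, the leading ETS factor of macrophages.
P2ry12: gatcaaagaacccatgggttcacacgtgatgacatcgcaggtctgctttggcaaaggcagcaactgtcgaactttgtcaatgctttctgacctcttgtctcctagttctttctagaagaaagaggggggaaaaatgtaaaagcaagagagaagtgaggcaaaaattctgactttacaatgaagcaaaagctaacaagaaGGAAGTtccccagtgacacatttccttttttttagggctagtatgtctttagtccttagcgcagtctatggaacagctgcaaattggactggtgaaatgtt
P2ry13: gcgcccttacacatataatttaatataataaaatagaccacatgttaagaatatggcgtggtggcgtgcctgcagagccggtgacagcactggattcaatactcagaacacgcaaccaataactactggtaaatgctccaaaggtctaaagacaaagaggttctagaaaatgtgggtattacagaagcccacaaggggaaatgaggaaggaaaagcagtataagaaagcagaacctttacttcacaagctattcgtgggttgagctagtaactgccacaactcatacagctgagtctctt
Nt5e: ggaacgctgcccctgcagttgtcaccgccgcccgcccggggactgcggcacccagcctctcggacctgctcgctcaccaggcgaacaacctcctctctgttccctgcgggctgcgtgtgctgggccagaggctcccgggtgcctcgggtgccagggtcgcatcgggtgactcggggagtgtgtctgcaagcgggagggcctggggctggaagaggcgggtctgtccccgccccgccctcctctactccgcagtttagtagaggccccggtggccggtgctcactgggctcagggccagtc
GGAAGT was found once among these, on the plus strand of the P2ry12 sequence, starting 51 bases before the gene's start. On either strand it was in 23.8% of all 32851 promoters of this length, so the match is a description and marks no site. On either strand, TGANTCA, the site of AP-1 factors, was in 7.81% of all promoters, AGATAA, a site of GATA factors, in 11.2% and the MEF2 motif in 3.69%, and none of them was in these 3. Of the 10 members, 8 had a promoter entry. P2rx7 held GGAAGT in each of its 2 entries, with TGANTCA in the first and AGATAA in the second, and Adora2b held GGAAGT. P2rx4, Entpd1 and Alpl held none of these motifs.

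P2ry12 and P2ry13 encode Gi-coupled receptors for ADP, and almost all of their reads were in the microglia class. P2ry12 stood at 1093 CPM (1084 to 1103) in the microglia class and at 0.843 CPM (0.499 to 1.33) in endothelial cells, a ratio of 1297 (821 to 2189). On plates A and B it stood at 1305 and 978 CPM in microglia-class cells, against 6.24 and 1.41 CPM in endothelial cells, and on plates C and D endothelial cells held 0.948 and 0 CPM. No plate's endothelial level came near a microglia-class level. P2ry13 stood at 778 CPM (770.2 to 786) in the microglia class and at 0.515 CPM (0.257 to 0.921) in endothelial cells, a ratio of 1511 (844 to 3027). Its plate values were 814 and 759 CPM in microglia-class cells of plates A and B, and 4.16, 0.943, 0.316 and 0.228 CPM in endothelial cells of plates A to D. In the reference annotation both genes lie inside Med12l, which runs on the opposite strand and shares 9 exon bases with P2ry12. Whether the counting used strand is not given in the sources used here, and Med12l itself stood at 20.5 CPM in the microglia class and 0.0468 CPM in endothelial cells.

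Within the microglia class both ADP receptors were uneven from cell to cell. P2ry12 ran from 0 through a median of 75.0 to 8688 CPM, with 141 of 280 cells carrying it (50.4%, 44.3 to 56.4), 93 with 1 to 9 reads and 46 with 0. The tenth of cells with the most reads, 28 cells, held 56.6% of the P2ry12 reads. P2ry13 ran from 0 through a median of 16.1 to 6270 CPM, with 116 carriers (41.4%, 35.6 to 47.4), 98 cells with 1 to 9 reads and 66 with 0. The median carrier held 1331 CPM of P2ry12 and 1357 CPM of P2ry13, far above the median cell. No endothelial cell carried either gene: 13 of 111 had a read of P2ry12 (11.7%, 6.39 to 19.2), at most 3 reads, and 9 had a read of P2ry13, at most 2. With cells thinned to 70000 reads, a depth that 34 microglia-class and 0 endothelial cells did not reach, 121 of 246 microglia-class cells (49.2%) and 0 of 111 endothelial cells carried P2ry12. Carriers were more frequent on plate A: 79 of 133 cells carried P2ry12 there (59.4%) and 62 of 147 on plate B (42.2%), although plate B cells were deeper, with a median of 199821 gene reads against 122714.

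**Figure D1:**
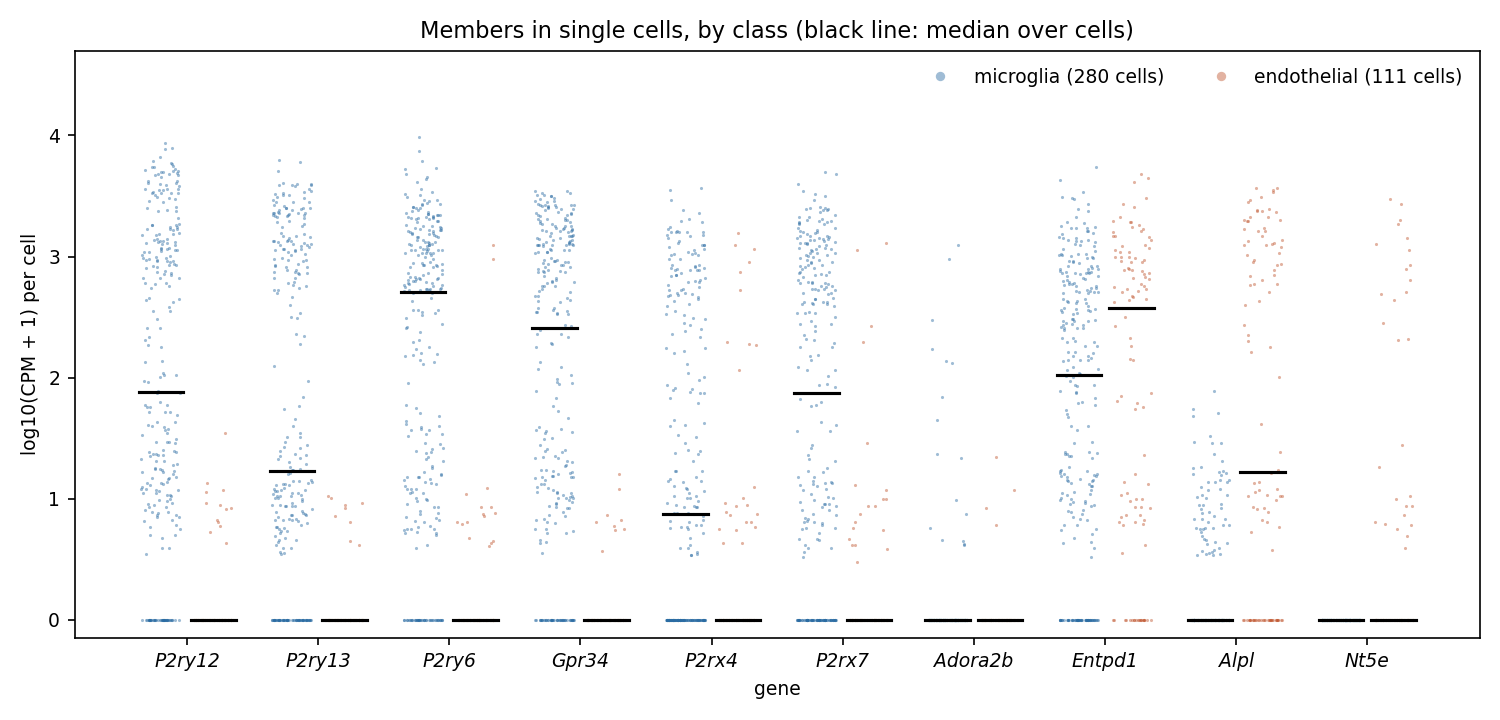
Each point is 1 cell, and the vertical axis is log10(CPM + 1); microglia-class cells are left of endothelial cells for each gene, and black lines are medians over cells. At 10 reads or more P2ry12, P2ry13, Gpr34, Adora2b, Alpl and Nt5e were carried in 1 class only, and Entpd1 by many cells of both. Cells of 1 class spread over several orders of magnitude.

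P2ry6 encodes a Gq-coupled receptor for UDP that is tied to phagocytosis in microglia, and it was the member carried by the most microglia-class cells. It stood at 799 CPM (791 to 807) in the microglia class and 25.3 CPM (23.2 to 27.6) in endothelial cells, a ratio of 31.6 (29.0 to 34.4). Per cell it ran from 0 through a median of 506 to 9709 CPM in the microglia class, and 173 of 280 cells carried it (61.8%, 55.8 to 67.5). Its level was alike on the plates, 815 and 791 CPM in microglia-class cells of A and B. The endothelial level was not spread over cells. It came from 2 carriers of 111 cells, and the highest cell held 55.6% of the class's reads, so that plates A to D stood at 2.08, 144, 0.842 and 25.7 CPM. The log2 ratio of P2ry6 was 4.93 over all cells, 5.94 without plate B, 4.12 without plate C and 5.99 without the highest cell of each class. The 2 carriers held 5.61 and 126 CPM summed over 10 microglia markers, against 0 to 1942 CPM (median 20.8) in the other 109 cells, with 4 of the 10 at 0 in the carriers. The share of these reads that came from microglial RNA was not tested. Sparc and Adgrg1 were left out of that marker list because endothelial cells held 3373 and 860 CPM of them.

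Gpr34 stood at 794 CPM (786 to 802) in the microglia class and at 0.468 CPM (0.224 to 0.861) in endothelial cells, a ratio of 1696 (922 to 3537). It had 911 and 730 CPM in microglia-class cells of plates A and B, against 0, 0.471, 0.737 and 0.228 CPM in endothelial cells of plates A to D. Of 280 microglia-class cells 153 carried it (54.6%, 48.6 to 60.6), with a range of 0 to 3477 CPM and a median of 255 CPM over the cells. No endothelial cell carried it, and the highest had 2 reads. In the annotation Gpr34 lies inside Cask, whose own level was 49.5 CPM in the microglia class and 40.5 CPM in endothelial cells.

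P2rx4 and P2rx7, adjacent genes of ATP-gated channels, were less one-sided. P2rx7, the channel that needs high ATP and is known for setting off the inflammasome, stood at 522 CPM (516 to 529) in the microglia class and 22.4 CPM (20.4 to 24.5) in endothelial cells, a ratio of 23.3 (21.3 to 25.6). Its plate values were 486 and 542 CPM in microglia-class cells of A and B, and 37.4, 1.41, 25.1 and 22.9 CPM in endothelial cells of A to D. It was carried by 142 of 280 microglia-class cells (50.7%, 44.7 to 56.7) and by 4 of 111 endothelial cells (3.60%, 0.990 to 8.97), and a microglia-class cell ranged from 0 to 5005 CPM with a median of 73.8. The 4 endothelial carriers held a median of 123 CPM (0 to 1053) summed over the 10 microglia markers, against 19.0 CPM (0 to 1942) in the other 107, with 5 of the 10 at 0 in the carriers, and the part of microglial RNA in this was not tested. Without the highest cell of each class the log2 ratio of P2rx7 was 5.14 in place of 4.48. P2rx4 stood at 323 CPM (318 to 328) in the microglia class and 50.9 CPM (48.0 to 54.1) in endothelial cells, a ratio of 6.34 (5.96 to 6.75), and this was the smallest ratio among the members higher in the microglia class. Its carriers numbered 95 of 280 microglia-class cells (33.9%, 28.4 to 39.8) and 10 of 111 endothelial cells (9.01%, 4.41 to 15.9). The endothelial level depended on the plate: 2.08, 1.41, 18.6 and 103 CPM on plates A to D. Of the 10 carriers, 8 were on plate D, where all cells in the count table are endothelial by label. Without plate D the log2 ratio (microglia over endothelial) was 4.39 in place of 2.64. The median microglia-class carrier of P2rx4 had 727 CPM of it and the median endothelial carrier 635 CPM. The 10 endothelial carriers held a median of 0 CPM (0 to 560) summed over the 10 microglia markers, against a median of 22.9 CPM (0 to 1942) in the other 101, and 7 of the 10 markers were at 0 in the carriers. The part of microglial RNA in the endothelial P2rx4 reads was not tested.

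Of the ectonucleotidases, the enzyme of the first step was in both classes and those of the last step were in endothelial cells. Entpd1 encodes CD39, which cuts ATP and ADP to AMP, and it was the only member carried by more than 50% of the cells of both classes. It stood at 429 CPM (424 to 435) in the microglia class and 689 CPM (678 to 699.9) in endothelial cells, 1.60-fold (1.57 to 1.64) higher in endothelial cells, which is under the 4-fold used as a call. Carriers were 150 of 280 microglia-class cells (53.6%, 47.5 to 59.5) and 66 of 111 endothelial cells (59.5%, 49.7 to 68.7), with medians over all cells of 105 and 373 CPM. The cells of the classes overlapped over nearly the whole range, 0 to 5488 CPM in the microglia class and 0 to 4789 CPM in endothelial cells. The direction was not the same on the shared plates. On plate A it stood at 451 CPM in microglia-class cells and 653 CPM in 7 endothelial cells, and on plate B at 418 CPM in microglia-class cells and 260 CPM in 10 endothelial cells. The summed level of the 9 endothelial markers had a median of 43.3 CPM (5.09 to 2159) in the 150 microglia-class carriers of Entpd1 and 62.9 CPM (8.05 to 692) in the other 130 cells, so the median was lower in the carriers and the highest cell was among them.

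Nt5e encodes CD73, which cuts AMP to adenosine, and no microglia-class cell had a read of it. A count of 0 in 280 cells allows a share of cells with a read of up to 1.07%, and 0 of the class's reads allows up to 0.0631 CPM, at a floor of 3 cells or 3 reads. In endothelial cells it stood at 155 CPM (149.5 to 160.1), so it was at least 2451-fold lower in the microglia class. Microglia-class cells held 0 CPM on plates A and B, against 363, 150.4, 125 and 165 CPM in endothelial cells of plates A to D. Within the endothelial class it was a minority transcript: 82 of 111 cells had 0 reads, 16 carried it (14.4%, 8.47 to 22.4), the highest cell reached 2966 CPM, and the 12 highest cells held 91.9% of the reads.

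Alpl stood at 2.02 CPM (1.64 to 2.47) in the microglia class and at 675 CPM (664 to 686) in endothelial cells, 334-fold (273 to 413) higher in endothelial cells. It stood at 0.656 and 2.77 CPM in microglia-class cells of plates A and B, against 578, 991, 473 and 827 CPM in endothelial cells of plates A to D. The endothelial level of each plate was above both microglia-class levels. No microglia-class cell carried it, and the highest had 5 reads. It was carried by 52 of 111 endothelial cells (46.8%, 37.3 to 56.6), which ran from 0 through a median of 15.7 to 3716 CPM, and the median carrier held 1280 CPM. A read of Alpl was still seen in 64 of 280 microglia-class cells (22.9%, 18.1 to 28.2), 54 of them on plate B, where the endothelial level was the highest of the 4 plates, and without plate B the log2 ratio of Alpl was -8.60 in place of -7.81. The source of these low counts was not tested.

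**Figure D2:**
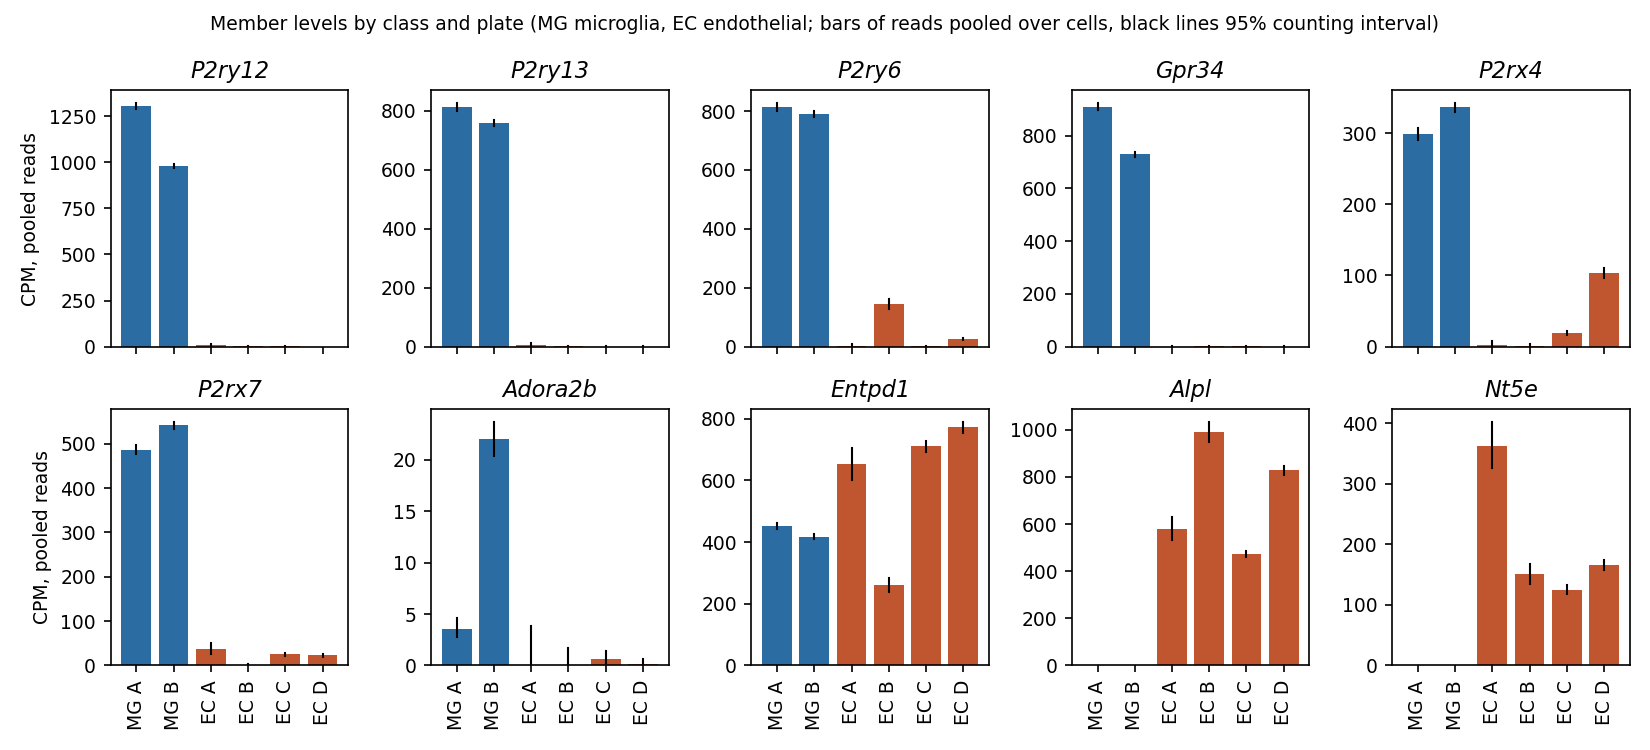
Bars are CPM of reads pooled over the cells of a class on a plate, with 95% counting intervals as black lines; microglia-class plates A and B (blue) are left of endothelial plates A to D (orange), and each panel has its own linear axis from 0. Receptor bars are tall in blue, with P2rx4 and P2ry6 raised on single endothelial plates, Alpl and Nt5e are tall in orange, and the plate B endothelial bar of Entpd1 (260 CPM) is below both blue bars.

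Adora2b, a Gs-coupled adenosine receptor, was the rarest receptor of the set. It stood at 15.5 CPM (14.4 to 16.7) in the microglia class and 0.328 CPM (0.132 to 0.675) in endothelial cells, a ratio of 47.3 (22.8 to 118). Only 7 of 280 microglia-class cells carried it (2.50%, 1.01 to 5.08), 1 cell held 37.1% of the reads, and 263 cells had 0 reads. Without plate B, which held 5 of the carriers, its log2 ratio was 1.75, under the 4-fold call, in place of 3.63. All 7 carriers fell in 1 of the clusters described below.

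Counted together, 7 of the 10 members exceeded the 4-fold call toward the microglia class on the log2(CPM + 1) scale, Nt5e and Alpl exceeded it toward endothelial cells, and Entpd1 lay between. Over the 14989 genes that reached 1 CPM in a class, the same call was made toward the microglia class for 19.9% and toward endothelial cells for 11.7%. The members' median log2 ratio was 4.06, beside 0.36 over all these genes. The members were chosen with earlier results of these data known, so their distance from the background is a description and no independent result. Either shared plate taken alone also gave 7 and 2, with medians of 5.14 (plate A) and 5.82 (plate B), beside 1.73 and 1.87 over all genes. Within these plates the call toward the microglia class was made for 46.5% (plate A) and 48.4% (plate B) of all genes measured there and toward endothelial cells for 10.9% and 11.5%, so 7 of 10 stands nearer to the background there than over all cells. Scaled by gene length, as CPM per kilobase of exon, the microglia-class levels ran from P2ry12 (429) over Gpr34 (380), P2ry13 (308) and P2ry6 (277) to P2rx7 (87.5), Entpd1 (77.0), P2rx4 (46.0), Adora2b (8.40) and Alpl (0.501), with Nt5e at 0. The same scale in endothelial cells gave Alpl 167, Entpd1 123, Nt5e 18.0, P2ry6 8.77, P2rx4 7.25 and P2rx7 3.75, with the other 4 members at 0.331 or less. Some neighbours in the microglia-class order were not further apart than the plates. P2ry12 stood above Gpr34 on both, at 513 against 436 CPM per kilobase on plate A and 384 against 349 on plate B, but each gene differed more between the plates than the pair did within a plate. P2rx7 (81.5 and 90.8) and Entpd1 (80.9 and 74.8) were almost level on plate A. P2ry13 (322 and 300.1) stayed above P2ry6 (282 and 274) on both plates. Fewer cells with a transcript and less RNA per cell cannot be told apart in these pooled levels, and the carrier shares above give the first of these at 10 reads.

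Most microglia-class cells carried several of the 6 nucleotide and lysophosphatidylserine receptors P2ry12, P2ry13, P2ry6, Gpr34, P2rx4 and P2rx7. The median was 3, with 24 cells carrying none (8.57%, 5.57 to 12.5), 117 carrying 4 or more (41.8%) and 9 carrying all 6 (3.21%, 1.48 to 6.01). Of 111 endothelial cells 96 carried none (86.5%, 78.7 to 92.2), 14 carried 1 and 1 carried 2. Microglia-class cells of plate A carried a median of 4 and those of plate B a median of 3.

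**Figure D3:**
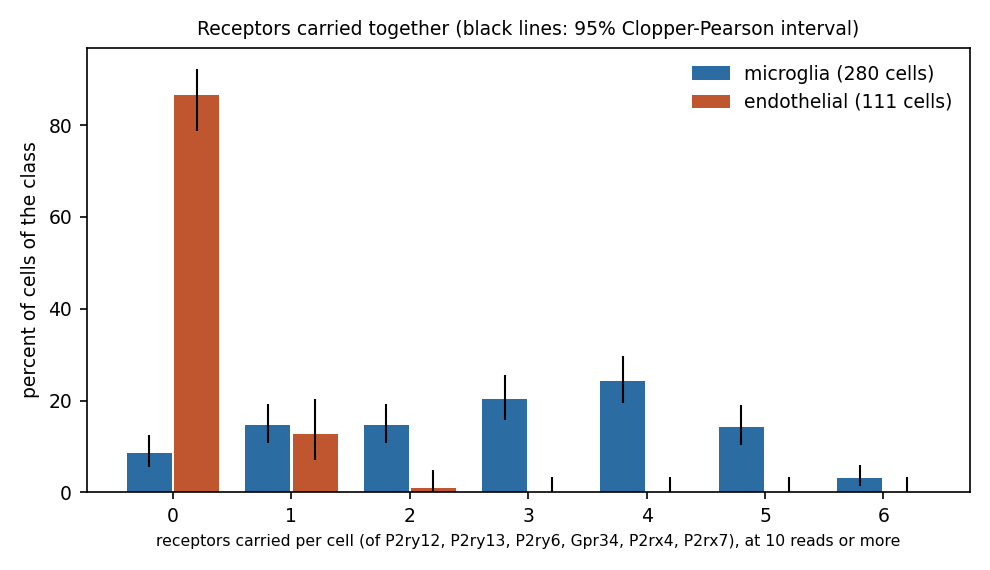
Bars give the percent of cells of a class by the number of the 6 receptors they carried at 10 reads or more, microglia class in blue left of endothelial class in orange, with 95% Clopper-Pearson intervals. The microglia class peaks at 4 receptors (68 cells), and 86.5% of endothelial cells carried none.

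The pair carried together by the most cells was P2ry6 and Gpr34, with 111, which is 64.2% of the P2ry6 carriers and 72.5% of the Gpr34 carriers. P2ry12 and Gpr34 were carried together by 106 cells, which is 75.2% of the P2ry12 carriers and 69.3% of the Gpr34 carriers. P2ry6 also shared 95 cells with P2rx7 (66.9% of P2rx7 carriers) and 88 with P2ry12 (62.4% of P2ry12 carriers), and P2rx7 shared 89 with Gpr34. Of all 280 cells 173 carried P2ry6. Whether a pair shared cells more often than its carrier counts alone would give was not tested. P2ry13 and Gpr34 shared 87 cells (75.0% of P2ry13 carriers, 56.9% of Gpr34 carriers), and the neighbours P2ry12 and P2ry13, the promoters of which are printed above, shared 84 (59.6% of P2ry12 carriers, 72.4% of P2ry13 carriers). The other adjacent pair, P2rx4 and P2rx7, shared 52 cells, 54.7% of the P2rx4 carriers and 36.6% of the P2rx7 carriers, beside the 50.7% of all cells that carried P2rx7. Over the 280 cells, which share plates and differ in depth, Spearman's rho of CPM was 0.45 for P2ry12 with Gpr34 (0.52 on plate A, 0.33 on plate B), 0.42 for P2ry12 with P2ry13 (0.45 and 0.38) and 0.35 for P2ry13 with Gpr34 (0.45 and 0.25). It was 0.09 for P2ry6 with Gpr34, 0.10 for P2ry6 with P2rx7, 0.04 for P2rx4 with P2rx7 and -0.12 for P2ry12 with P2ry6. Among the 6 receptors the 3 highest values were those among P2ry12, P2ry13 and Gpr34, while the many cells that carried P2ry6 with another receptor came with little correlation of level. P2ry12, P2ry13 and Gpr34 also differed in level between the clusters described below. The values of rho were taken over all clusters together, and none within a cluster is given here.

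Among 4268 genes read in at least 20% of microglia-class cells, those with a pattern much like that of P2ry12 included Olfml3, a secreted protein (rho 0.52), and Siglech, a lectin receptor (0.51). For Gpr34 they included P2ry12 (0.45) and Cx3cr1, the fractalkine receptor (0.43). For P2ry13 they were Siglech (0.43), P2ry12 (0.42) and Mertk, a receptor for dying cells (0.42). Siglech and Cx3cr1 are on the microglia marker list, and these values too were taken over all clusters of the class together. No gene reached 0.4 for P2ry6, P2rx4 or P2rx7 over microglia-class cells, nor for Entpd1, Alpl or Nt5e over endothelial cells.

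In endothelial cells the 3 enzymes were seldom carried all together, and Nt5e itself had few carriers. Of 111 endothelial cells 66 carried Entpd1, 52 carried Alpl and 16 carried Nt5e. Whether the enzymes shared cells more or less often than these counts alone would give was not tested. Entpd1 and Alpl without Nt5e were carried by 30 of 111 cells (27.0%, 19.0 to 36.3), Entpd1 and Nt5e without Alpl by 11 (9.91%, 5.05 to 17.0), and all 3 by 2 (1.80%, 0.219 to 6.36). Entpd1 alone was carried by 23 cells, Alpl alone by 18, Alpl and Nt5e without Entpd1 by 2, Nt5e alone by 1, and none of them by 24. Of the 16 Nt5e carriers 13 carried Entpd1 (81.2%) and 4 carried Alpl, and of the 52 Alpl carriers 32 carried Entpd1 (61.5%). An enzyme that cuts AMP, Alpl or Nt5e, was thus carried by 0 of 280 microglia-class cells, of which 150 carried Entpd1, and by 64 of 111 endothelial cells (57.7%, 47.9 to 67.0).

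The microglia class was clustered with the members and the purine pathway list left out, to see where the members fall. Cluster 2, with 54 cells, was microglia-like: at least 50% of its cells had reads of each of the 12 microglia markers, and Ecscr, Adgrg1, Slc2a5 and Sall1 led it. Cluster 1, with 192 cells, was border-macrophage-like: Ccl24, Cbr2, F13a1 and Pf4 were among its leading genes, and its border-associated macrophage markers had a median log2 ratio of 4.53 over the other cells of the class, against -4.15 in cluster 2 and -5.60 in cluster 3. The same value for the microglia markers was 2.38 in cluster 2, -1.35 in cluster 1 and -4.54 in cluster 3. Adgrg1, Slc2a5 and Sall1 are themselves on the microglia marker list, and Cbr2, F13a1 and Pf4 on the border-associated macrophage list. These lists were chosen with earlier results of these data known, so leading genes and marker values are not separate support for the names. Counts of markers read in at least 50% of cells separated the clusters less: the border-associated macrophage list had 7, 9 and 9 of 12 in clusters 2, 1 and 3, and the microglia list had 9 of 12 in each of clusters 1 and 3. Cluster 3, with 34 cells, was left without a name; Dpp4, Olfm1, Tnip3 and Itgb7 led it, and at least 50% of its cells had reads of 3 of 7 dendritic cell and 2 of 6 monocyte markers, beside the macrophage markers just given. All 3 clusters had cells of plates A and B, and their median gene reads were 182370, 128216 and 202429 in clusters 2, 1 and 3.

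P2ry12, P2ry13 and Gpr34 stood highest in the microglia-like cluster. P2ry12 was at 3497 CPM (3461 to 3533) in cluster 2 and at 511 CPM (503 to 519) in cluster 1, a ratio of 6.85 (6.72 to 6.98), with 49 of 54 cells carrying it (90.7%) in cluster 2 and 91 of 192 (47.4%) in cluster 1. Within plate A the levels were 4433 CPM in cluster 2 and 630 CPM in cluster 1, and within plate B 3075 and 430.1 CPM, so cluster 2 was the higher on each. P2ry13 was at 1964 CPM in cluster 2 and 559 CPM in cluster 1, a ratio of 3.51 (3.44 to 3.59), and Gpr34 was at 1693 and 660.0 CPM, a ratio of 2.56 (2.51 to 2.62). Entpd1 was also higher in cluster 2, at 666 CPM against 379.7 CPM in cluster 1, a ratio of 1.75 (1.70 to 1.81).

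P2ry6 and the P2X channels leaned the other way. P2ry6 was at 554 CPM (539 to 568) in cluster 2 and at 1037 CPM (1025 to 1048) in cluster 1, a ratio of 0.534, with 53.7% and 67.7% of cells carrying it. P2rx7 was at 340 CPM in cluster 2 and 714 CPM in cluster 1 (ratio 0.476), carried by 38.9% and 61.5% of cells. P2rx4 was at 254 CPM in cluster 2 and 389 CPM in cluster 1 (ratio 0.654), carried by 22.2% and 39.1%. The direction of these 3 and of the 4 members above was the same within plate A and within plate B. Only P2ry12 passed 4-fold between the clusters, 1 of the 8 members at 1 CPM or more in either cluster, and 0 passed it toward cluster 1. Among all 13941 genes at 1 CPM or more in either cluster, 7.94% passed it toward cluster 2 and 17.3% toward cluster 1.

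**Figure D4:**
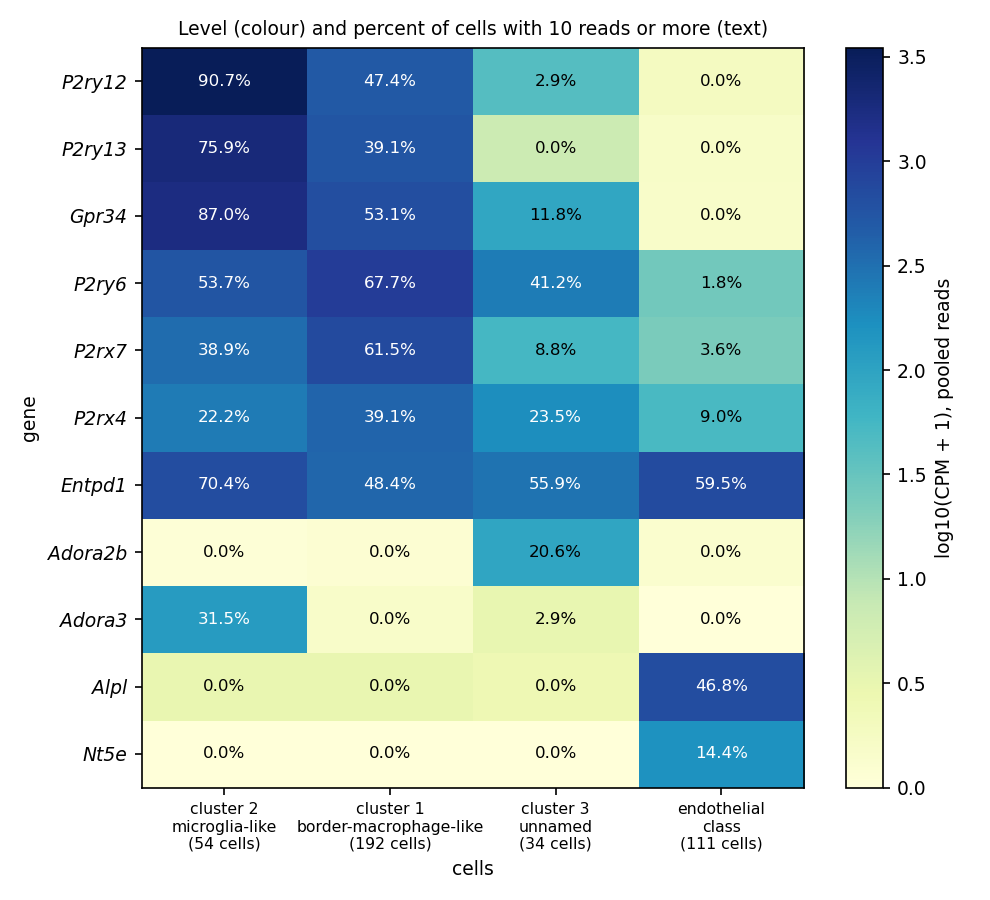
Colour gives log10(CPM + 1) of reads pooled over the cells of a cluster or class, and the text in each box gives the percent of its cells with 10 reads or more; columns run from cluster 2 over clusters 1 and 3 to the endothelial class. P2ry12 is carried by 90.7%, 47.4% and 2.94% of clusters 2, 1 and 3, Adora2b by 20.6% of cluster 3 and by 0% elsewhere.

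Cluster 3 had little of the microglial receptors. P2ry12 stood at 41.1 CPM there, with 82.7% of the reads in 1 cell, P2ry13 at 5.60 CPM with 0 carriers of 34, and Gpr34 at 89.8 CPM with 4 carriers. Entpd1 (298 CPM, 19 carriers), P2ry6 (246 CPM, 14 carriers) and P2rx4 (171 CPM, 8 carriers) had more carriers there. Adora2b was at 92.8 CPM (86.2 to 99.8) in cluster 3, with all 7 carriers, and at 0.0952 and 0.206 CPM in clusters 2 and 1. Without cluster 3 the log2 ratio of Adora2b was -0.17. The 6 reads of cluster 1 and 1 of cluster 2, beside 0.328 CPM in endothelial cells, are too few to order the classes. The place of Adora2b among the 7 members higher in the microglia class thus rested on these 34 cells. P2ry10, a lysophospholipid receptor related to the P2Y receptors, had all 8 of its carriers in cluster 3, and so had Dpp4 all 19. The number of the 6 receptors carried per cell had a median of 4 in cluster 2, 3 in cluster 1 and 1 in cluster 3, and 15 of the 34 cells of cluster 3 carried none, although its cells were the deepest.

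The rest of the pathway was taken from a list of 71 genes that holds the members, of which 70 were in the table and 54 reached 1 CPM in either class. Of these 54 genes 23 passed the 4-fold call toward the microglia class and 10 toward endothelial cells, with a median log2 ratio of 1.06. Of the 44 that are no members, 16 were higher in the microglia class (36.4%), 8 were higher in endothelial cells (18.2%) and 20 lay between. Their median was 0.83. Over all measured genes the shares were 19.9% and 11.7%, with a median of 0.36. The list too was chosen with earlier results of these data known, so this difference is a description only. Within plate A the counts for genes that are no members were 22 and 8 of 41, and within plate B 19 and 6 of 36. Their shares toward the microglia class, 53.7% and 52.8%, lay near those over all genes within these plates, 46.5% and 48.4%. Toward endothelial cells the shares were 19.5% and 16.7%, beside 10.9% and 11.5% over all genes.

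The families differed in direction, with few genes in each. Over all measured genes the 4-fold call was made toward the microglia class for 19.9% and toward endothelial cells for 11.7%. Of 6 measured ectonucleotidases 4 were higher in endothelial cells, with a median log2 ratio of -4.95: Alpl, Nt5e, Enpp3 (0.126 CPM in the microglia class, 129.9 CPM in endothelial cells) and Enpp2, the lysophospholipase autotaxin (33.9 and 286 CPM, with 89.8% of the microglia-class reads in 1 cell). Enpp1, which cuts ATP to AMP and pyrophosphate, went the other way, at 24.0 CPM in the microglia class and 2.90 CPM in endothelial cells, but at less than 4-fold within plates A and B (log2 ratios of 1.66 and 1.57). Of 10 measured P2Y receptors and their kin 6 were higher in the microglia class, P2ry10 (12.0 CPM against 0) among them, and P2ry2, the receptor for ATP and UTP, was higher in endothelial cells, at 2.82 CPM in the microglia class and 25.3 CPM in endothelial cells. P2ry2 depended on the plate: plate A gave 7.93 CPM in microglia-class cells and 0 CPM in 7 endothelial cells.

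Each adenosine receptor that was measured leaned to 1 class. Adora3 stood at 27.4 CPM in the microglia class and had 0 reads in endothelial cells, so it was higher in the microglia class by at least 195-fold, and 17 of its 18 carriers were in the microglia-like cluster, where it stood at 121 CPM (115 to 128) against 0.480 CPM in cluster 1. Adora2a stood at 0.0421 CPM in the microglia class and at 51.3 CPM in endothelial cells, where 5 of 111 cells carried it. With the 7 carriers of Adora2b, the adenosine receptors were thus carried by few cells of either class.

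Of 10 measured genes listed for adenosine handling, 5 were higher in the microglia class, 1 was higher in endothelial cells and 4 lay between. Over all measured genes the shares were 19.9% and 11.7%. Within plates A and B the family's shares toward the microglia class were 66.7% and 44.4%, beside 46.5% and 48.4% over all genes. Dpp4 is on this list without itself taking up or converting adenosine, and Entpd6 is given here without being counted. Adk, which phosphorylates adenosine, stood at 34.0 CPM in the microglia class and 4.59 CPM in endothelial cells, and Slc29a3, a lysosomal nucleoside transporter, at 289 and 34.2 CPM. Ada, which deaminates adenosine, stood at 37.0 CPM in the microglia class and 206 CPM in endothelial cells, but at less than 4-fold within plates A and B (log2 ratios of -1.04 and -1.29). Dpp4, a surface peptidase, stood at 62.5 CPM in the microglia class and 2.39 CPM in endothelial cells. Its microglia-class level rested on cluster 3, at 376 CPM. Clusters 1 and 2 held 0.652 and 0.0952 CPM of Dpp4, below the endothelial level. Entpd6, an intracellular relative of Entpd1, stood at 42.6 CPM in the microglia class and 7.77 CPM in endothelial cells.

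Release and effector genes were mixed. Their counts are small, and the shares over all measured genes were 19.9% toward the microglia class and 11.7% toward endothelial cells. Of 5 measured release genes 2 were higher in the microglia class, 1 was higher in endothelial cells and 2 lay between, and of 10 measured effectors these counts were 3, 2 and 5, with a median log2 ratio of 0.05. Slc17a9, the vesicular transporter that loads ATP, stood at 28.1 CPM in the microglia class and 0.0468 CPM in endothelial cells, and Calhm6, of a family of large-pore channels, at 55.0 and 0 CPM. Gja1, which encodes connexin 43, stood at 4.53 CPM in the microglia class and 352 CPM in endothelial cells. Kcnk13, the potassium channel THIK-1 that P2Y12 is known to act on in microglia, stood at 137 CPM in the microglia class and 0.234 CPM in endothelial cells, and Kcnk6, a related channel, at 32.5 and 6.74 CPM. Among G protein subunits, Gna15 stood at 197 CPM in the microglia class and 0.0468 CPM in endothelial cells, Gna11 at 25.0 and 291 CPM, and Gnai1 at 0.105 and 11.6 CPM with 2 endothelial carriers. The most abundant subunits lay between the classes over all cells: Gnas at 776 CPM in the microglia class and 2343 CPM in endothelial cells, although past 4-fold toward endothelial cells within plates A and B (log2 ratios of -2.26 and -2.01), and Gnai2, which couples receptors such as P2Y12, at 761 and 1010 CPM. Abhd12, a lipase that breaks down lysophosphatidylserine, the Gpr34 ligand, stood at 1106 CPM in the microglia class and 62.8 CPM in endothelial cells. Adora2a, Enpp3 and Gnai1 had 0 reads in the 10 endothelial cells of plate B.

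**Figure D5:**
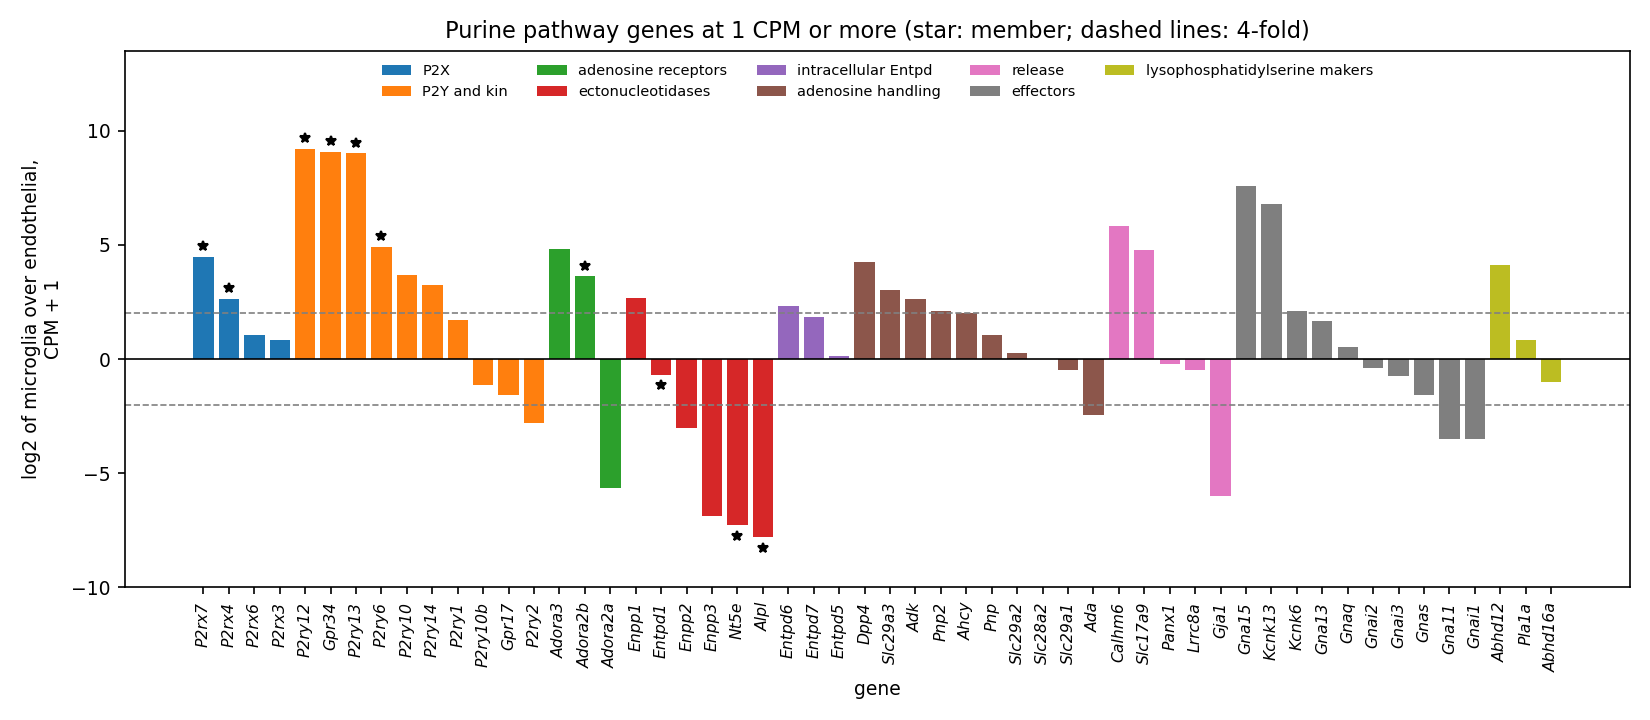
Bars are log2 ratios, microglia over endothelial, with 1 CPM added to each level, for the 54 pathway genes at 1 CPM or more; colours mark families, stars mark members and dashed lines mark 4-fold. The receptor families lie mostly above 0, and 5 of the 6 ectonucleotidase bars lie below it.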

How the data were processed

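The authors deposited raw counts, whole numbers of reads for each gene in each Smart-seq2 cell. The submitters' processing notes name Subread 1.4.6-p5 with featureCounts, SAMtools 1.16.1 and build GRCm39. Aligner, annotation and strand setting: not given in the sources used here. Each count column was matched to its class through the deposited cell table, and 0 columns were left out. No cell was filtered and no doublet caller was run.

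Counts of a class, plate or cluster were pooled and divided by all gene reads to give CPM, with exact Poisson intervals, exact conditional binomial intervals for ratios and Clopper-Pearson intervals for shares, at 95%. A gene counts as measured at 1 CPM in either class and as called at 4-fold on log2(CPM + 1), a scale that understates the ratio of low genes. A level of 0 was bounded by a floor of 3 reads over the class. Exon lengths and gene neighbours came from GENCODE M21, an older build, and were matched by symbol. Leiden clusters (resolution 0.5) came from a graph of 15 neighbours in 20 principal components of the log CPM of 2000 variable genes. Wells are taken as single cells, and as no animal is named, no p-value or standard error was computed. The ratio interval and the 4-fold call were tested on simulated class counts, and the ranking of similar genes on a gene built to follow another. The simulated counts were Poisson and lacked the spread between cells seen here. Clustering, thinning and carrier shares were not tested in this way.

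The members, the pathway list and the marker lists were chosen with earlier results of these data known. Named are all members, the pathway genes past 4-fold at 10 CPM or more in the higher class with the 2 most abundant of the others, and up to 3 genes per member with the most similar pattern over cells at a Spearman's rho of at least 0.4, except that 1 gene of similar pattern is not reported here. Alternatives were other scalings, thresholds, plates and clusterings. Scripts ran on scanpy 1.11.5, leidenalg 0.10.2, scipy 1.17.1, numpy 2.4.6 and pandas 2.3.3 under Python 3.11.15.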

Additional observations from a re-analysis of the deposited data

How the results depend on the processing

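The counts of 7 members higher in the microglia class and 2 higher in endothelial cells stayed within 6 to 7 and at 2 under every scaling, plate, threshold and cell subset tried. The count was 6 without plate B, at 8-fold, and without cluster 3, with cluster 1 alone or with cluster 2 alone, subsets chosen after seeing the data. Of 150 alternative values of member ratios 4 changed sign. The log2 ratio (microglia over endothelial) of Entpd1 was -0.68, and 0.68 within plate B, and that of Adora2b was 3.63, and -0.17 without cluster 3, -0.14 with cluster 1 alone and -0.28 with cluster 2 alone, where its carriers are left out by construction. The negative Adora2b values rest on few reads and give no order between the classes. For Entpd1 the cause was not tested.

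Between the clusters, the count of members past 4-fold toward cluster 2 was 2 in place of 1 within plate A and when cells with Sall1 and no Mrc1 were set against cells with Mrc1 and no Sall1, and 1 in place of 0 passed it the other way in that grouping. DESeq2 size factors moved the median log2 ratio of all genes by -0.12, TMM by -0.07. No paired analysis was possible because each class is 1 sample and no result comes from a test that could take plate as a block; values within plates A and B, which hold both classes, are given in its place. Depth limits what a count of 0 to 9 reads in a cell shows, and 7 and 10 endothelial cells stand behind the values within plates A and B.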
